A study of Mus musculus with 60 samples.

Results

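In the mouse tailbud, the growing hind end of the embryonic body, 7 transcripts of genes that mark the notochord, the gut endoderm and epithelia were followed. They were taken by transcript ID, before the version number, from the deposited tables, and are 7 of 117135 listed transcripts. The IDs are ENSMUST00000002708 (Shh), ENSMUST00000047315 (Foxa2), ENSMUST00000027035 (Sox17), ENSMUST00000000312 (Cdh1), ENSMUST00000053577 (Epcam), ENSMUST00000023952 (Krt8) and ENSMUST00000023803 (Krt18). The reference tables hold 0 of these IDs, so each symbol is the one assigned with the ID and was not checked against an annotation.

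The series holds 60 samples, of which 33 libraries of embryonic stem cells were not analysed here. The other 27 are total RNA libraries from tailbuds, 16 labelled wild type and 11 labelled mutant, and the titles number the embryos and give their stage in somites, the paired blocks laid down along the body axis. Per the design text the mutants carry a substituted lysine, K116R, in JARID2, an accessory subunit of the histone-methylating Polycomb repressive complex 2. Wild-type embryos numbered 4 at each of 12, 13, 14 and 16 somites, and mutants numbered 2 at 12, 2 at 13, 2 at 14 and 5 at 16 somites. The labels give no strain, zygosity, litter or batch, and whether the embryos of a group share a litter is not stated. A substitution leaves no change in transcript level by which the genotype labels could be checked. The total estimated count per library ran from 20908470 to 27090684. Pairwise agreement with the rest of its group was lowest for mutant embryo 1 at 16 somites (mean Pearson r 0.836) and wild-type embryo 4 at 14 somites (0.864), against 0.874 to 0.898 in the other 25 libraries. The Shh and Krt18 slopes and the correlations that they bear on are also given without these 2 embryos.

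Shh is a secreted signal made by the notochord, the floor plate and the gut endoderm, and it patterns the neural tube and the somites beside it. Foxa2 is a forkhead transcription factor of the node, the notochord and the endoderm, and Sox17 is an HMG-box transcription factor of the endoderm that is also active in arterial endothelium. Cdh1 (E-cadherin) and Epcam are adhesion molecules at the contacts of epithelial cells. Krt8 and Krt18 are the type II and type I keratins that pair with each other to form the intermediate filaments of simple epithelia. In the tailbud such cells include the hindgut lining and the surface ectoderm.

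The keratin transcripts were the most abundant of the 7 and varied together from embryo to embryo in either genotype. In wild type, Krt18, Krt8, Shh and Epcam had downward somite slopes with an unadjusted edgeR p under 0.05, beside 2.74% of tested transcripts in either direction. The wild-type keratin means were highest at 13 somites. No slope of a member passed correction over all transcripts, where 0.0218% passed in wild type and 0.2% in both genotypes together. No member was called between the genotypes, where 0.0154% of all tested transcripts were. The Foxa2 row read 0 in most embryos while a neighbouring row of the table held counts in them. In whole tissue, a smaller share of the expressing cells and less RNA per cell cannot be told apart.

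Krt8 and Krt18 lie beside each other on mouse chromosome 15, Krt8 at chr15:101996711-102004342 on the minus strand and Krt18 at chr15:102028216-102032026 on the plus strand (RefSeq, GRCm38.p6). Their starts are 23874 bases apart and point away from each other. The 250 bases before each start are shown because these are the members that moved together. Capitals mark matches to the E2 box CAGGTG, a sequence bound by repressors of epithelial genes of the Snail and Zeb families, searched on both strands and found here as CACCTG.
Krt8 promoter, chr15:102004343-102004592, minus strand: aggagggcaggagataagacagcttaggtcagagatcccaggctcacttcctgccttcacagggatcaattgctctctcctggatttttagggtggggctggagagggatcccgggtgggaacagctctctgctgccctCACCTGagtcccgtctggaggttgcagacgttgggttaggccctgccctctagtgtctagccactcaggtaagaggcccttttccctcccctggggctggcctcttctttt
Krt18 promoter, chr15:102027966-102028215, plus strand: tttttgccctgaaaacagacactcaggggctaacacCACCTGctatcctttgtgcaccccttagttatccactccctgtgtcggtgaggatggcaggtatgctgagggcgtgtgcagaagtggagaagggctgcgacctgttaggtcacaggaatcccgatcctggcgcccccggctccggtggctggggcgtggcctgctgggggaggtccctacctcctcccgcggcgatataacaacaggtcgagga
The match lies 111 to 106 bases before the start of Krt8 and 214 to 209 bases before that of Krt18. Of all 32536 promoter windows of this length in the table, 17.3% hold the E2 box. The forkhead core TGTTTA, the second motif searched on both strands, is in neither window and is in 12.0% of all windows. The motifs were chosen with these windows in view. Among the other members with such a window, that of Epcam holds both motifs and those of Foxa2 hold neither.

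On the length-scaled TPM scale the keratins stood far above the other members. Krt8 measured 139 ± 41.0 TPM and Krt18 131 ± 40.8 TPM (mean ± SD, n = 27 embryos), and these ranges overlapped. Cdh1 followed at 4.03 ± 1.12 TPM, Sox17 at 1.80 ± 0.495 TPM and Shh at 1.08 ± 0.416 TPM. Epcam at 0.321 ± 0.378 TPM and Foxa2 at 0.262 ± 0.580 TPM were lowest, and their order does not exceed the spread between embryos. All values below, unless named otherwise, are CPM, counts scaled to a common library size with TMM factors. Behind them stood 3249 to 11491 reads per embryo for Krt8, 25 to 134 for Shh and 0 to 67.0 for Epcam, so counting error weighs most on the last. A count of 0 allows up to 3 reads, which is 0.0944 to 0.155 CPM in these libraries and covers counting error only.

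Shh, the signalling ligand at chr5:28456840-28467101 (RefSeq, GRCm38.p6), had lower group means at later stages in wild type. In wild type its levels were 3.41, 5.45, 4.37 and 4.18 CPM at 12 somites and 3.41, 5.11, 2.18 and 2.88 at 13 somites. At 14 somites they were 1.63, 4.39, 3.44 and 0.789, and at 16 somites 2.00, 2.67, 1.19 and 2.38. Each of the 4 wild-type embryos at 16 somites was below each of the 4 at 12 somites, a separation that 3.07% of all tested transcripts show in either direction. In mutants Shh stood at 2.66 and 5.49 CPM at 12 somites, 4.02 and 3.60 at 13, and 0.953 and 3.87 at 14. At 16 somites the mutant values were 3.06, 2.37, 3.48, 2.69 and 2.82, with 4 of 5 above every wild-type embryo of that stage. The 2 genotypes overlapped at each of the 4 stages.

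Across both genotypes the Shh slope was -0.20 log2 units per somite (SE 0.074, unadjusted p = 0.0120, edgeR adjusted p = 0.516), and -0.20 (SE 0.068, adjusted p = 0.328) without the 2 embryos that agreed least with their groups. The wild-type slope alone was -0.27 (SE 0.10, unadjusted p = 0.0153) and the mutant slope -0.11 (SE 0.10), and their difference of 0.15 (SE 0.15) was not called. The genotype change over all stages was 0.17 on the log2 scale (SE 0.24, edgeR adjusted p = 0.946), and -0.00235 without the embryos of 16 somites. Of 11 mutants 9 lay above the wild-type mean of their own stage, a count that was not made for all tested transcripts. The largest gap between group means was at 16 somites, with 2.06 ± 0.640 CPM in wild type (SD, n = 4) and 2.88 ± 0.416 CPM in mutants (SD, n = 5). It gave a log2 change of 0.48 (SE 0.42, edgeR adjusted p = 0.931).

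Sox17, the endodermal and endothelial transcription factor at chr1:4490928-4497426 in RefSeq, had its smallest spread in wild type at 13 somites (SD 0.326 CPM, n = 4). Its values were 7.05, 5.96, 8.06 and 5.87 CPM at 12 somites and 6.43, 6.90, 6.11 and 6.46 at 13. They were 3.70, 3.55, 6.29 and 4.12 at 14 somites and 5.30, 4.65, 6.32 and 6.59 at 16. The level was thus lowest at 14 somites and did not fall in step with stage. Mutants had 5.75 and 7.48 CPM at 12 somites, 5.85 and 4.27 at 13, and 5.41 and 4.93 at 14. At 16 somites they had 4.14, 5.73, 5.94, 1.45 and 4.73 CPM, where embryo 4 was the lowest of all 27. Only at 13 somites did both mutants lie below all 4 wild-type embryos, where 12.6% of all tested transcripts have groups that do not overlap. That gap gave a log2 change of -0.36 (SE 0.36, edgeR adjusted p = 1). The genotype change over all stages was -0.16 (SE 0.16, adjusted p = 0.899) and the slope over both genotypes -0.094 per somite (SE 0.050, adjusted p = 0.809).

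The row for Foxa2, on chr2:148042877-148046969 in RefSeq (GRCm38.p6), was at 0 in 21 of 27 embryos. It read 2.64 CPM in wild-type embryo 3 at 12 somites, 2.84 in wild-type embryo 4 at 13 somites and 4.98 in wild-type embryo 3 at 16 somites. Among mutants it read 1.81 CPM in embryo 1 at 13 somites, and 2.56 in embryo 4 and 0.600 in embryo 5 at 16 somites. The row just before it in the tables, ENSMUST00000109964 with a length of 2070 bases against 2128 for the Foxa2 row, was examined because of these zeros. It had counts in 26 of 27 embryos. Its median was 6.54 CPM in the 21 embryos with no Foxa2 count and 4.00 CPM in the 6 with one. It read 0 in wild-type embryo 3 at 16 somites, the embryo with the highest Foxa2 value.

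After centring on the groups the rows were inversely related over the 27 embryos (Pearson r -0.714, Spearman rho -0.642, permutation p = 0.00252 for each, two-sided). Without the 2 embryos farthest from the median, r was -0.509. Summed, the rows varied less, with a coefficient of variation of 27.5% against 38.5% for the neighbouring row alone. The reference tables do not say whether ENSMUST00000109964 belongs to Foxa2, for which RefSeq lists 3 transcripts, and the relation was noticed before it was tested. The genotype change of the Foxa2 row alone was -1.07 log2 units (SE 1.62, edgeR adjusted p = 0.950), and that of the sum was -0.097 (SE 0.22, adjusted p = 0.973). The slopes were 0.25 (SE 0.40) and -0.028 (SE 0.069) per somite, and neither was called. The sum averaged 6.26 ± 1.68 CPM in wild type (SD, n = 16) and 5.85 ± 1.72 CPM in mutants (SD, n = 11), with overlapping ranges. Its lowest value, 0.694 CPM, was in wild-type embryo 4 at 14 somites, 1 of the 2 embryos that agreed least with their groups.

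**Figure D1:**
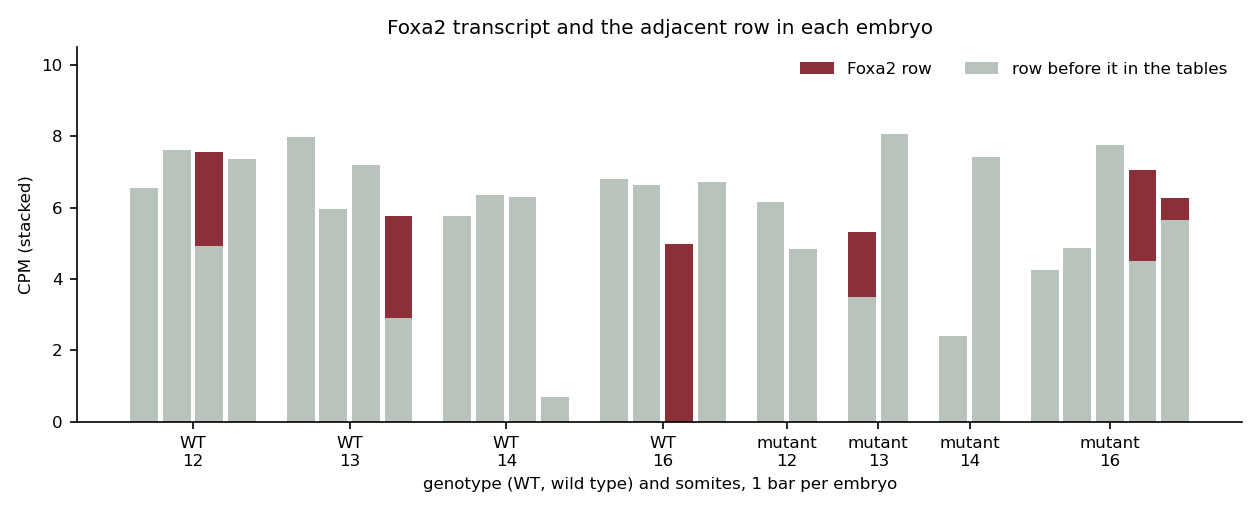
Stacked bars give the level in CPM of the Foxa2 row and of the row before it in the tables, with 1 bar per embryo, ordered by genotype and somite number. The Foxa2 row holds counts in 6 embryos, and in 1 of them, wild-type embryo 3 at 16 somites, it makes up the whole bar.

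Cdh1, which encodes E-cadherin and lies at chr8:106603350-106670247 in RefSeq, had the smallest spread of the 7 within groups on the log2 scale. In wild type it measured 18.6, 22.7, 19.3 and 18.1 CPM at 12 somites, 21.1, 23.1, 26.5 and 18.4 at 13, 19.8, 18.2, 22.7 and 23.3 at 14, and 16.7, 18.0, 19.6 and 15.2 at 16. Mutants measured 18.1 and 15.2 CPM at 12 somites, 15.3 and 14.9 at 13, 11.7 and 23.2 at 14, and 14.4, 16.0, 24.2, 17.5 and 20.2 at 16. Both mutants were below all wild-type embryos at 13 somites, where the groups of 12.6% of all tested transcripts do not overlap, with means of 15.1 ± 0.294 CPM (SD, n = 2) and 22.3 ± 3.41 CPM (SD, n = 4). There the log2 change was -0.56 (SE 0.22, unadjusted p = 0.0202, edgeR adjusted p = 1). At the other 3 stages the genotypes overlapped. Over all stages the change was -0.19 (SE 0.11, unadjusted p = 0.0856, adjusted p = 0.725), and 4 of 11 mutants lay above the wild-type mean of their stage. The slope over both genotypes was -0.0073 per somite (SE 0.033, adjusted p = 0.990). It was -0.062 in wild type (SE 0.035) and 0.057 in mutants (SE 0.056). Their difference of 0.11 (SE 0.063, edgeR unadjusted p = 0.0883) was not called.

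Epcam, the other adhesion molecule, at chr17:87635979-87651127 in RefSeq, was near the limit of detection and at 0 in 7 of 27 embryos. Wild-type values were 2.69, 2.16, 0.406 and 0.906 CPM at 12 somites, 0, 2.37, 0.355 and 0.397 at 13, 0.422, 0, 0.856 and 1.14 at 14, and 0.174, 0.528, 0 and 0.269 at 16. Mutant values were 0.374 and 0 CPM at 12 somites, 0 and 0 at 13, 0.222 and 0.545 at 14, and 0, 0.308, 1.06, 0.730 and 0.955 at 16. The wild-type mean was thus 1.54 ± 1.06 CPM at 12 somites and 0.243 ± 0.220 CPM at 16 (SD, n = 4 each). In mutants it was 0.187 ± 0.265 CPM at 12 somites (SD, n = 2) and 0.611 ± 0.447 CPM at 16 (SD, n = 5). Slopes were -0.65 per somite in wild type (SE 0.31, unadjusted p = 0.0493, edgeR adjusted p = 1.00) and 0.58 in mutants (SE 0.40, adjusted p = 0.853). The difference of 1.22 per somite (SE 0.50) had an unadjusted p of 0.0225 and an edgeR adjusted p of 0.938. At 12 somites both mutants were below all 4 wild-type embryos, a stage where 12.9% of all tested transcripts have groups that do not overlap. The nearest embryos there, mutant embryo 1 and wild-type embryo 3, had 9.00 and 9.01 estimated reads. No difference at a single stage was called. Over all stages the change was -1.03 (SE 1.13, adjusted p = 0.917).

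Krt8, the type II keratin, was the most abundant member and spread widely between embryos. In wild type it measured 283, 372, 270 and 254 CPM at 12 somites, 357, 371, 248 and 283 at 13, 223, 287, 275 and 310 at 14, and 263, 177, 171 and 274 at 16. Mutants measured 352 and 431 CPM at 12 somites, 453 and 337 at 13, 165 and 256 at 14, and 169, 364, 430, 210 and 184 at 16. The mutants reached both lower and higher than the wild-type range of 171 to 372 CPM, with 2 below it and 3 above it. Over both genotypes the stage means were 327 ± 69.0 CPM at 12 somites (SD, n = 6), 342 ± 71.7 at 13 (n = 6), 252 ± 52.3 at 14 (n = 6) and 249 ± 93.5 at 16 (n = 9). The slope was -0.13 per somite (SE 0.046, unadjusted p = 0.0114, edgeR adjusted p = 0.510), and it was -0.12 in wild type (SE 0.045) and -0.13 in mutants (SE 0.087). The genotype change was 0.19 (SE 0.15, adjusted p = 0.847).

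Krt18, its type I partner, spread as widely. In wild type it measured 191, 257, 183 and 185 CPM at 12 somites, 233, 252, 186 and 216 at 13, 160, 218, 173 and 201 at 14, and 167, 120, 118 and 158 at 16. Mutants measured 246 and 289 CPM at 12 somites, 303 and 225 at 13, 111 and 182 at 14, and 70.7, 218, 299, 138 and 131 at 16. All 4 wild-type embryos at 16 somites were below the 4 at 12 somites, groups that are apart for 3.07% of all tested transcripts. Among mutants 4 of 5 were below and 1 above the embryos of 12 somites. The slope over both genotypes was -0.16 per somite (SE 0.050), with the smallest unadjusted p of the 7, 0.00379, and an edgeR adjusted p of 0.330. In wild type alone it was -0.16 (SE 0.040, unadjusted p = 0.00120, adjusted p = 0.956), and in mutants -0.16 (SE 0.099, adjusted p = 0.837). The genotype change was 0.17 (SE 0.16, adjusted p = 0.891), with 6 of 11 mutants above the wild-type mean of their stage for either keratin. Without the 2 embryos that agreed least with their groups the slope was -0.14 per somite (SE 0.045, edgeR adjusted p = 0.312) and the genotype change 0.25 (SE 0.14, adjusted p = 0.734).

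**Figure D2:**
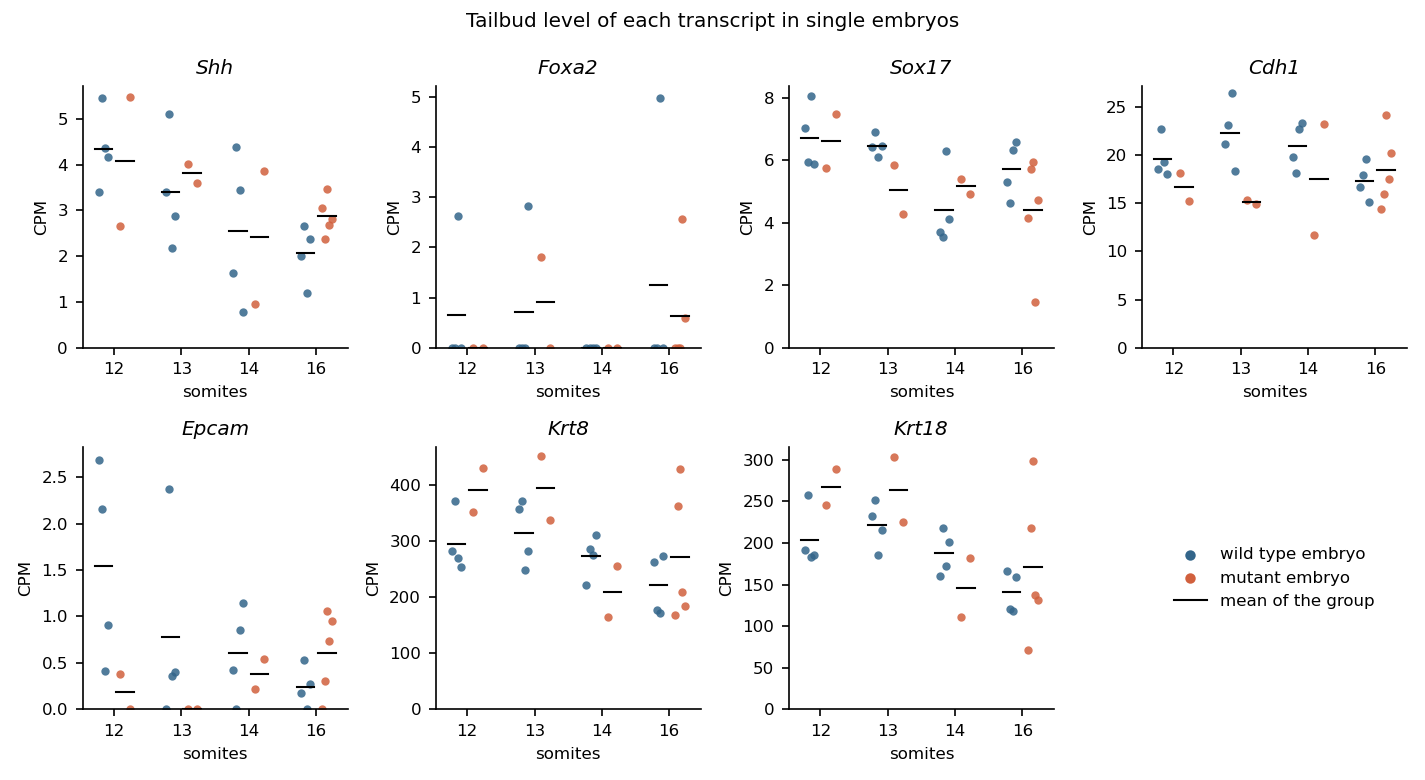
Each panel plots the CPM of 1 transcript against somite number, with a point per embryo, the genotypes side by side and a bar at the mean of each group; the axes start at 0 and differ between panels. Shh, Krt8 and Krt18 are lower at 16 than at 12 somites in the wild-type means, Foxa2 lies at 0 in most embryos, and the genotypes overlap at every stage for these 4 transcripts.

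Over all stages edgeR called 0 of the 7 members between genotypes, and 0 had an unadjusted p under 0.05. The background was 7 of 45394 tested transcripts, 0.0154%, with 7.63% under 0.05 before adjustment. Without each embryo in turn this background ran from 1 to 25 transcripts, and that at 12 somites from 0 to 37. The median change of the members was -0.16 log2 units, beside -0.012 over all tested transcripts, and DESeq2 and limma with voom also called none. At 12 and 16 somites 0% of all tested transcripts were called, and at 13 and at 14 somites 0.00661% were. No member was among them, and 2 members, Cdh1 and Epcam, had an unadjusted p under 0.05, both at 13 somites. Of all tested transcripts, 3.83% had such a p at 12 somites, 3.39% at 13, 3.1% at 14 and 6.13% at 16. The interaction of genotype and stage was called for 0.00661% of tested transcripts and for no member, the smallest unadjusted p being 0.0440 for Epcam. Before adjustment, 2.95% of tested transcripts had an interaction p under 0.05. Of 28 comparisons of a member at a single stage, 3 showed groups that did not overlap, all lower in mutants: Epcam at 12 somites, and Sox17 and Cdh1 at 13. Among all tested transcripts the groups did not overlap for 12.9% at 12 somites, 12.6% at 13, 9.11% at 14 and 2.15% at 16.

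For the somite slope over both genotypes the background was 91 of 45394 transcripts called, 0.2%, and no member was among them. Before adjustment 3 of 7 members, Shh, Krt8 and Krt18, had a p under 0.05, all downward, against 6.52% of all tested transcripts in either direction. The keratins varied together within groups (Pearson r 0.921), so their slopes are not independent in this count or in that for wild type. The median slope of the members was -0.12 per somite and that of all tested transcripts 0.0020. In wild type alone 6 of the 7 passed the filter on low counts, all but Foxa2. Of these, 4 had an unadjusted p under 0.05 and 0 were called, beside 2.74% and 0.0218% of 36763 tested transcripts. In mutants 0 of 7 reached either threshold, where 0.0255% of 39151 transcripts were called, and 0% of transcripts were called for a difference in slope. Between 12 and 16 somites Shh and Krt18 were the 2 of 7 members whose wild-type groups did not overlap, beside 3.07% of all tested transcripts. In mutants no member's groups were apart, beside 10.4% of all tested transcripts.

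**Figure D3:**
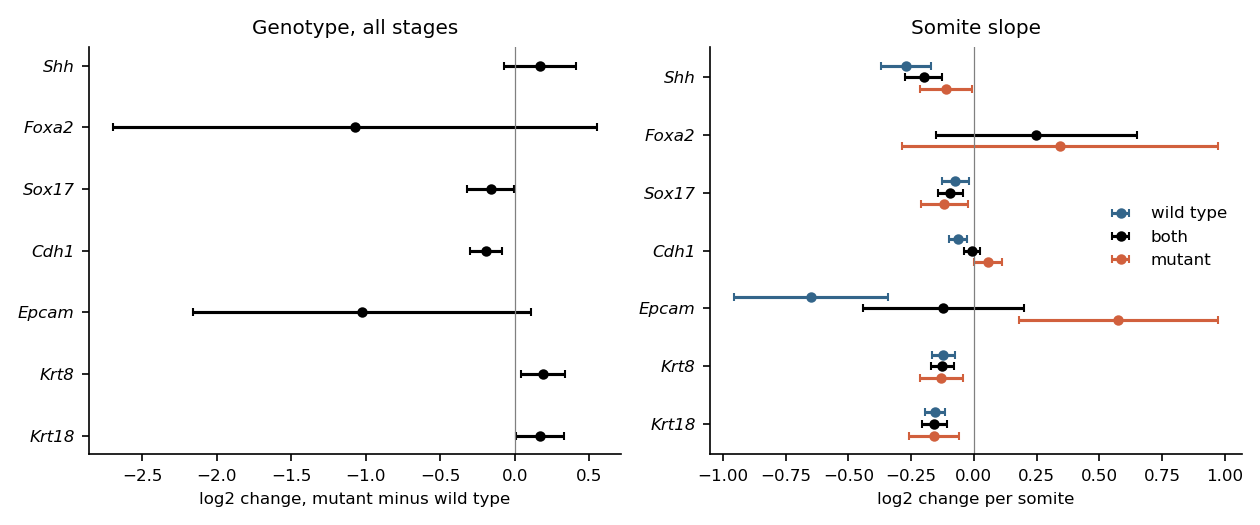
Points give the fitted log2 change between mutant and wild type over all stages (left) and the log2 change per somite in wild type, in mutants and in both (right), and bars give 1 standard error. Shh, Sox17, Krt8 and Krt18 have slopes below 0 in each fit. For Cdh1 and Epcam the slopes of the genotypes lie on opposite sides of 0, and no value passed the adjusted threshold.

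The question of whether the members vary together was put to the embryos within groups, by subtracting the group mean of log2 CPM. Foxa2 was left out because of its zeros, which left 6 members and 15 pairs. Krt8 and Krt18 were the pair that passed (Pearson r 0.921, Spearman rho 0.960, permutation p = 1e-05, the smallest that 100000 resamples can give, adjusted p = 0.00015). The keratins deviated to the same side of their group mean in 26 of 27 embryos, although in a group of 2 both deviations are mirror images. In wild type alone r was 0.933 (permutation, adjusted p = 0.00345) and in mutants alone 0.941 (adjusted p = 0.0123). Leaving out any 1 embryo kept r between 0.891 and 0.962, and leaving out the 2 farthest from the Krt8 median gave 0.882. Among all tested transcripts Krt18 ranked the third by its r to Krt8, with 0.00661% as high or higher. Krt8 ranked the second by its r to Krt18, with 0.00441% as high.

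The ratio of Krt8 to Krt18, on the TPM scale, had a median of 1.06 and ran from 0.935 to 1.24 in 26 embryos. It was 1.71 in mutant embryo 1 at 16 somites, where Krt18 was at its lowest value of 70.7 CPM. This is the library that agreed least with its group, and the part of the library in this value was not tested. Without it and wild-type embryo 4 at 14 somites, r between the keratins was 0.963.

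Among the other 14 pairs 12 had r above 0, and the median r of all 15 was 0.293. Cdh1 and Epcam, the adhesion molecules, had r 0.461 and rho 0.513 (permutation p = 0.0227, adjusted p = 0.171). Without the 2 embryos that agreed least with their groups r was 0.338 (permutation p = 0.102). It was 0.283 in wild type alone and 0.707 in mutants alone, a difference that was not tested. Of all tested transcripts 3.06% had as high an r to Cdh1, and 3.63% to Epcam. Shh had r 0.328 to Krt8 and 0.293 to Krt18 (permutation p = 0.0792 and 0.0829, adjusted p = 0.311 for each). On the scale of log2(TPM + 0.1), r was 0.171 to Krt8 and 0.172 to Krt18 (permutation p = 0.408 and 0.342). On log2 CPM without the same 2 embryos, r was 0.554 and 0.578, with an adjusted permutation p of 0.0226 for each. In 1 of these embryos, wild-type embryo 4 at 14 somites, Shh was the lowest of all 27 at 0.789 CPM and Krt8 the highest of its group at 310 CPM. Sox17 had r between -0.029 and 0.369 to the other members, and no pair with it passed.

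**Figure D4:**
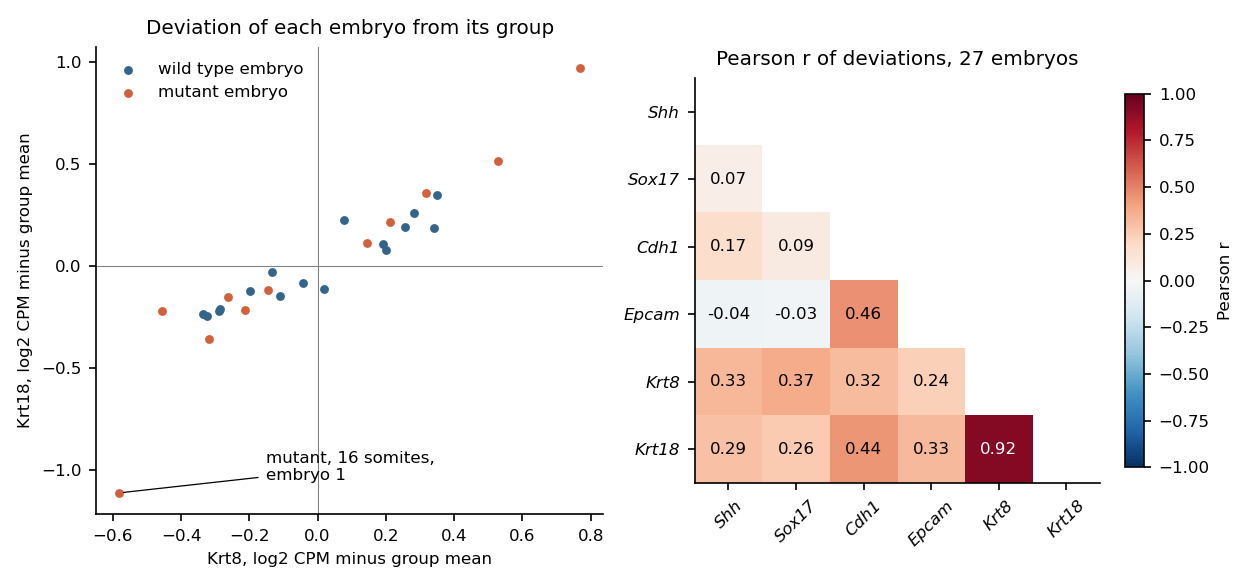
The left panel plots the deviation of Krt18 against that of Krt8 from the group mean, in log2 CPM, with a point per embryo; the right panel gives Pearson r for the 15 pairs over 27 embryos. The keratins lie along a line with r 0.92, mutant embryo 1 at 16 somites sits at its lower end, and the other pairs have r from -0.04 to 0.46.

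All 6 members lay above their group means in wild-type embryo 2 at 13 somites and in mutant embryo 3 at 16 somites. The second of these had 430 CPM of Krt8, 299 of Krt18, 24.2 of Cdh1, 5.94 of Sox17, 3.48 of Shh and 1.06 of Epcam, in each case the highest of its group. None was above in wild-type embryo 4 at 12 somites or mutant embryo 2 at 13 somites. By the mean of the standardized deviations, the most similar of 25036 other transcripts were ENSMUST00000004784 (r 0.850, mean 115 CPM) and ENSMUST00000103194 (r 0.835, mean 79.0 CPM), over 27 embryos. The reference tables give neither a name. The members themselves had r of 0.463 for Sox17 to 0.854 for Krt18 with this mean, of which each is a part.

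Within groups the keratins varied more than most transcripts of their own level. The SD of log2 CPM within groups was 0.380 for Krt8, above that of 95.7% of 490 tested transcripts within 0.5 log2 units of its level, whose median was 0.196. For Krt18 it was 0.428, above 98.1% of 691 such transcripts with a median of 0.192. Cdh1, at 0.253, matched the median of 0.255 for its level. Sox17 had 0.432 against a median of 0.408, but 0.246 against 0.400 without mutant embryo 4 at 16 somites, above only 11.7% of its neighbours. Shh, at 0.636, was above 0.524. Epcam had an SD of 1.52 against 1.03 and Foxa2 2.28 against 1.21, where Epcam rests on 0 to 67.0 reads and Foxa2 on 0 in 21 embryos and 12.6 to 121 in the other 6.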

How the data were processed

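RNA of 27 tailbuds was analysed per transcript. The authors deposited 1 table per library that, per the file headers, holds for each of 117135 transcripts its length and effective length, with the abundance in TPM and an estimated count. The submitters' processing notes name Trim Galore 0.5.0, Salmon 1.5.2, DESeq2 1.46.0 and the build mm10, with no role for each, and the annotation release is not given in the sources used here. The deposited TPM values are relative to each library and the authors' effective lengths. Of the deposited estimated counts above 0, 11.5% were whole, since reads that match several transcripts are divided by estimation, and transcripts of 1 gene can trade reads.

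Groups came from the sample titles. The members and lists were chosen with earlier results of these data known. All 7 members are described, with the 2 transcripts most like their mean. The lists of Hedgehog, epithelial and endodermal genes and of cell type markers needed a table of transcripts to genes and were not used here, so the tissue was not checked against markers.

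Estimated counts were rounded and tested in R 4.3.3 with edgeR 4.0.16 (quasi-likelihood, TMM factors). filterByExpr on the 8 groups kept 45394 of 89010 transcripts with any count, all 7 members among them. It set aside 0.105% to 0.246% of a library's counts. P-values were adjusted over all tested transcripts (Benjamini-Hochberg), and an adjusted p under 0.05 was called. The pooled genotype fit held stage as a factor, and stage effects came from 1 fit of 8 groups. Slopes had somite number as a number. Standard errors are the size of a change divided by the root of its F. P-values measure the spread between these embryos. Correlations used log2 CPM with a prior count of 2, centred on groups, with embryos permuted within groups 100000 times (two-sided, Benjamini-Hochberg over 15 pairs rather than the 21 planned, as Foxa2 was at 0 in most embryos). The pooled genotype fit and the slope fit over both genotypes were run on simulated counts, and the other fits were not.

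Alternatives included limma 3.58.1 with voom, DESeq2 1.42.0, other scalings, filters and covariates, effective lengths as an offset, a replicate block, subsets of embryos and fits without each embryo in turn. Embryo numbers were not treated as pairs in the main fits. Same-numbered embryos of different groups had a mean correlation of deviations of 0.000903 over 76 pairs, against -0.000256 over 238 others. As a mean over all groups, this cannot exclude pairs within single stages. Promoter windows are RefSeq's for GRCm38.p6, and 4 of the 7 members have one. Figures were drawn with matplotlib 3.10.9.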

Additional observations from a re-analysis of the deposited data

Results flagged for a closer look

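In groups of 4 or 5 embryos, 6 of 34 comparisons of a member within its group held 1 embryo set far apart from the others, 4 for Foxa2 and 2 for other members. Chance sets apart about 1 in 20, or 1.7 of 34, and the 2 for other members are near that number. This rate does not apply to the Foxa2 row, where any single value above 0 among zeros is set apart. For Foxa2 these were wild-type embryo 3 at 12 somites (2.64 CPM), wild-type embryo 4 at 13 somites (2.84 CPM) and wild-type embryo 3 at 16 somites (4.98 CPM), with all other embryos of their groups at 0. Mutant embryo 4 at 16 somites read 2.56 CPM of Foxa2 against 0 to 0.600 CPM in the other mutants of that stage. Epcam measured 2.37 CPM in wild-type embryo 2 at 13 somites and 0 to 0.397 CPM in the other 3 embryos. Krt18 measured 257 CPM in wild-type embryo 2 at 12 somites and 183 to 191 CPM in the others, and Krt8 was also highest in that embryo at 372 CPM.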

How the results depend on the processing

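No member was called in any of 211 repeats of the 7 tests under other scalings, filters, tools, covariates or subsets of embryos. The replicate block, with embryo number as a factor, also called none, and changed the sign of the Foxa2 values, to a genotype change of 3.11 and a slope of -0.352. Other changes of sign were also in uncalled values. The Foxa2 genotype change was 0.257 with limma and ran from -2.37 to 0.950 without each embryo in turn, the highest without wild-type embryo 3 at 16 somites. Its slope was -0.0281 for the summed rows and -2.19 without the embryos of 16 somites, and ran from -0.496 to 0.586 without each embryo, the lowest without that same embryo. Without the 16-somite embryos the Shh genotype change was -0.00235 and the Cdh1 slope 0.0425, and the Cdh1 slope ran from -0.0249 to 0.00779 without each embryo. The adjusted p of the Krt18 slope ran from 0.0684 to 0.539 without each embryo.

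Of the 15 pairs, 1 passed as reported and 3 passed without centring on groups (Shh with Krt8, and Cdh1 with Epcam, beside the keratins). Likewise 3 passed without the 2 embryos that agreed least with their groups, a choice made after seeing the data. Without each embryo in turn 1 to 2 pairs passed, the second being Cdh1 and Epcam without wild-type embryo 3 at 16 somites (adjusted permutation p = 0.0442). The summed Foxa2 rows were also added after seeing the data. Epcam had 0 to 67.0 estimated reads per embryo, some of them fractional. The part of depth, or of reads divided between transcripts, in its spread was not tested.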
